A study of Caenorhabditis elegans with 14 samples.

Results

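The *lipl* genes encode lipases related to mammalian lysosomal acid lipase, and all 8 members of the family, *lipl-1* to *lipl-8*, were looked up by their WormBase symbol among the 21982 genes of the count table. All 8 were present, and 7 passed the filter on low counts that 15685 genes passed in all. *lipl-8* was the member that did not. The 14 RNA-seq libraries were made from whole *C. elegans* that were moved as L4 larvae to *E. coli* OP50, the standard laboratory food, or to *E. faecalis* OG1RF, a pathogen, for 16 h and harvested as day 1 adults. The worms were N2, the wild type, or the mutant strain GF89, labelled skpo-1(0), which carries a deletion allele of the heme peroxidase gene *skpo-1*. There were 4 libraries of N2 on *E. coli*, 3 of N2 on *E. faecalis*, 3 of *skpo-1* on *E. coli* and 4 of *skpo-1* on *E. faecalis*. The mutant was 1 strain, so the allele and any other difference of that strain from N2 cannot be told apart. The *E. faecalis* plates were of brain heart infusion agar with gentamycin, and the medium of the *E. coli* plates of the exposure was not given in the sources used here, so an effect of the medium was not tested.

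Lysosomal lipases cut fatty acids from stored fat and from lipoproteins inside the lysosome, a route called lipophagy when the fat arrives by autophagy, while cytosolic lipases act on the surface of lipid droplets. In *C. elegans* the intestine is the main organ of both digestion and fat storage, and several *lipl* genes are known to be used there. Fasting is known to raise several of them: the transcription factor HLH-30, the worm relative of mammalian TFEB, activates them, and MXL-3 holds them down in fed worms. *lipl-4* is known for a further role, because its product releases lipid signals that the fatty acid binding protein LBP-8 carries to the nucleus.

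By the WBcel235 annotation, 7 of the 8 genes lie on chromosome V and *lipl-7* lies on chromosome IV (10239278 to 10241823). On chromosome V, *lipl-5* (385746 to 387740) and *lipl-3* (521595 to 524218) are near one end. *lipl-4* (6550171 to 6552186), *lipl-6* (6931475 to 6934312), *lipl-2* (9791567 to 9793241), *lipl-1* (12919986 to 12921692) and *lipl-8* (14745684 to 14748708) are spread along the rest. No 2 of them are neighbours. Of the 8, 7 have a coding sequence of 401 to 411 codons, and that of *lipl-6* is longer at 591 codons. The first exon of a neighbouring receptor gene, *srw-107*, shares 23 bp with the last exon of *lipl-3* on the same strand, but *srw-107* had 0 counts in all libraries. *lipl-4* overlaps a non-coding RNA and a tRNA gene on the other strand, neither of which is in the count table.

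The libraries held 15174830 to 36682565 counts on genes. In a chi-square test of counts, the statistic per degree of freedom was 7.84 to 422 over the 18 replicate pairs, so no library was a repeat of another in its group. The *skpo-1* gene was at 297 ± 13.2 CPM (counts scaled to library size and TMM factor, mean ± SD, n = 4) in N2 on *E. coli*, at 146 ± 46.4 (n = 3) in N2 on *E. faecalis*, and in the mutant at 2.49 ± 0.156 (n = 3) on *E. coli* and 1.83 ± 0.297 (n = 4) on *E. faecalis*. Markers of the intestine were detected in all libraries, and their summed level ran from 1360 to 1630 CPM in N2 on *E. coli*, 1868 to 2468 in N2 on *E. faecalis*, 1429 to 1637 in *skpo-1* on *E. coli* and 1670 to 2152 in *skpo-1* on *E. faecalis*. Of 8 such markers, 2 were called higher in the N2 response to *E. faecalis*, and 0 in that of the mutant. Body wall muscle markers stood apart in N2 on *E. coli* replicate 2 (1204 CPM, against 4559 to 4726 in the other replicates) and in *skpo-1* on *E. faecalis* replicate 4 (968 CPM, against 2131 to 2686). Each was also the lowest of its group in pharynx markers (48.8 and 81.8 CPM) and oocyte markers (2546 and 2934 CPM). Each was the highest of its group in sperm markers (21.5 and 38.9 CPM) and TMM factor (1.13 and 1.33), so muscle was not alone in this. Intestine markers of both lay within the range of the other replicates. In whole worms, fewer cells of a type and less RNA per cell cannot be told apart.

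Changes were tested with edgeR's quasi-likelihood test over all 15685 genes. A call required a Benjamini-Hochberg adjusted p below 0.05 together with a log2 fold change (log2FC) of 1 or more in size. On *E. faecalis*, *lipl-1*, *lipl-2* and *lipl-3* were upregulated in N2, and *lipl-1*, *lipl-2* and *lipl-5* were upregulated in *skpo-1*. That is 3 of 7 tested members called higher in N2, where 19.2% of all tested genes were. In *skpo-1* it is also 3 of 7, where 11.8% of all tested genes were called in either direction, 1573 higher and 276 lower. No tested *lipl* gene was called lower, as 4.10% of genes were in N2 and 1.76% in *skpo-1*. The median log2FC of the 7 was 1.31 in N2 and 1.12 in *skpo-1*, beside 0.03 and 0.12 over all tested genes. Without the pair of libraries whose muscle markers stood apart, the counts were 3 in N2 and 4 in *skpo-1*. The shares of all genes in that fit are not given here.

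**Figure D1:**
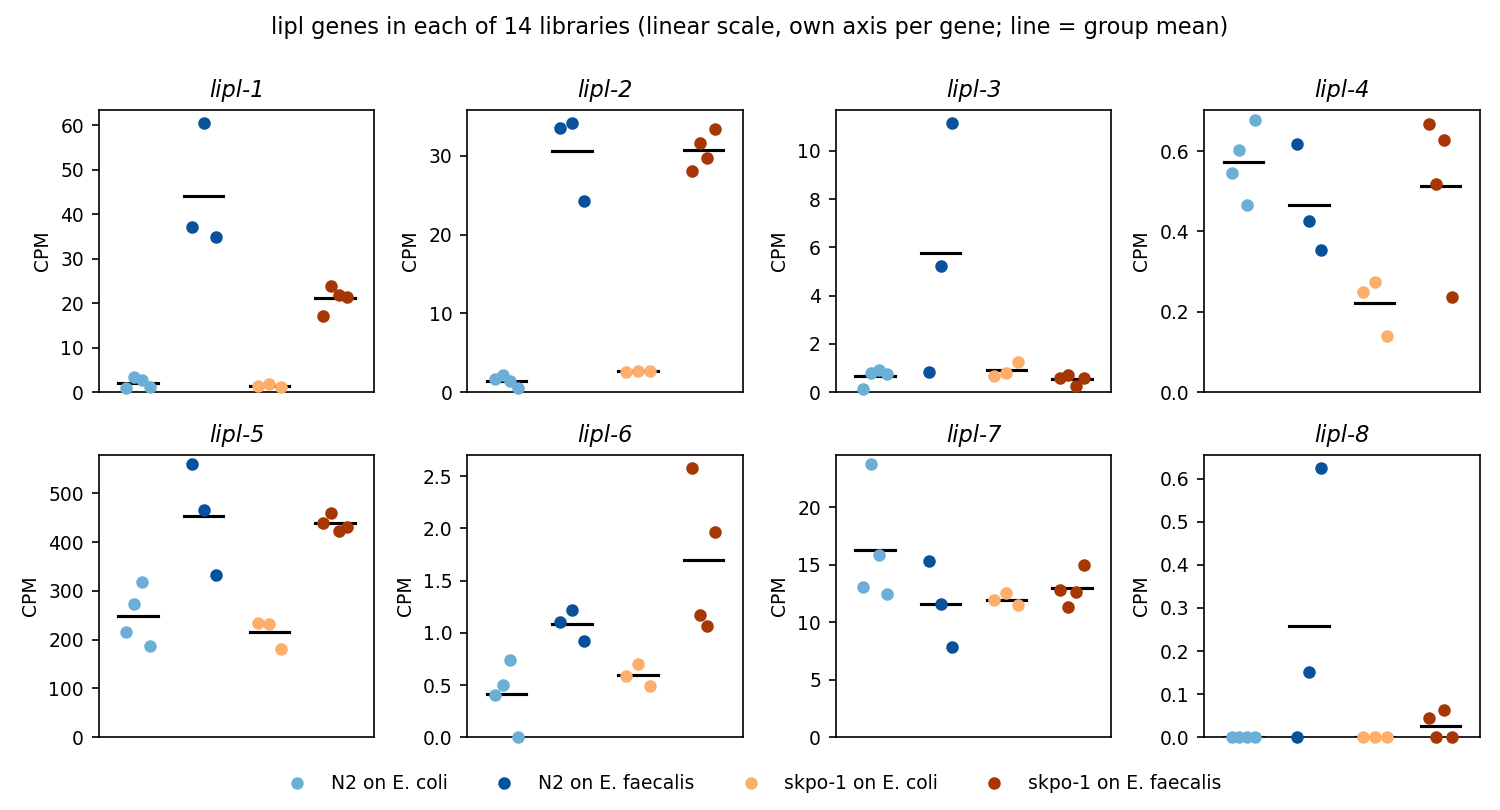
CPM of each *lipl* gene in each library, 1 panel per gene with its own linear axis from 0; points are libraries, ordered by replicate number within a group, and lines are group means. *lipl-1*, *lipl-2* and *lipl-5* were higher on *E. faecalis* in both genotypes with no overlap, whereas *lipl-3* was high in replicates 2 and 3 of N2 on *E. faecalis* (5.24 and 11.2 CPM) and nowhere above 1.26 CPM otherwise.

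*lipl-1*, known as a fasting-induced lipase, and *lipl-2* had the largest increases of the tested members in both genotypes. *lipl-1* was at 0.88, 3.45, 2.71 and 1.23 CPM in N2 on *E. coli* and at 37.3, 60.6 and 34.9 CPM in N2 on *E. faecalis*. In *skpo-1* it was at 1.34, 1.84 and 1.05 CPM on *E. coli* and at 17.1, 23.9, 21.9 and 21.5 CPM on *E. faecalis*. All 7 libraries on *E. faecalis* lay far above all 7 on *E. coli*, and the *skpo-1* libraries on *E. faecalis* all lay below those of N2. The increase was 20.5-fold in N2 (log2FC 4.36, SE 0.38, adjusted p = 5.00e-06) and 14.7-fold in *skpo-1* (log2FC 3.88, SE 0.42, adjusted p = 4.39e-05). By size of increase, *lipl-1* was at position 80 of 15685 genes in N2 and at position 78 in *skpo-1*. The values rested on 235 and 4117 counts over the N2 groups and on 105 and 2016 over the *skpo-1* groups.

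*lipl-2* was at 1.63, 2.17, 1.43 and 0.55 CPM in N2 on *E. coli* and at 33.6, 34.2 and 24.2 CPM in N2 on *E. faecalis*. In *skpo-1* it was at 2.58, 2.70 and 2.66 CPM on *E. coli* and at 28.1, 31.6, 29.7 and 33.4 CPM on *E. faecalis*. Here the libraries of both genotypes overlapped on *E. faecalis*, and on *E. coli* the *skpo-1* libraries all lay above those of N2. The increase was 20.5-fold in N2 (log2FC 4.36, SE 0.30, adjusted p = 3.82e-07) and 11.6-fold in *skpo-1* (log2FC 3.53, SE 0.31, adjusted p = 7.54e-06). *lipl-2* thus stood at position 79 in N2, next to *lipl-1*, and at position 101 in *skpo-1*.

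The balance between *lipl-1* and *lipl-2* was looked at because their order differed between the genotypes. The ratio was taken within each library, per kb of transcript, so that it does not depend on the scaling between libraries. On *E. faecalis* the ratio of *lipl-1* to *lipl-2* was 1.06, 1.69 and 1.38 in N2 and 0.582, 0.722, 0.703 and 0.613 in *skpo-1*. All N2 libraries were above 1 and all *skpo-1* libraries below it. On *E. coli* the ratio was 0.517, 1.52, 1.81 and 2.12 in N2 and 0.495, 0.651 and 0.377 in *skpo-1*, and 1 N2 library fell inside the *skpo-1* range. This ratio was chosen after the levels were seen and is given as a description.

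*lipl-3*, another gene known to be induced by fasting, was called in N2 and not in *skpo-1*, and its N2 libraries were uneven. It was at 0.14, 0.81, 0.93 and 0.74 CPM in N2 on *E. coli* and at 0.84, 5.24 and 11.2 CPM in N2 on *E. faecalis*. In *skpo-1* it was at 0.68, 0.78 and 1.26 CPM on *E. coli* and at 0.58, 0.71, 0.25 and 0.59 CPM on *E. faecalis*. Replicate 1 of N2 on *E. faecalis* (19 counts) lay within the range of the *E. coli* libraries, and replicates 2 and 3 (172 and 411 counts) lay above every other library. The increase in N2 was 8.45-fold (log2FC 3.08, SE 0.65, adjusted p = 0.00326), and it was still called, at a log2FC of 2.17 (adjusted p = 0.0264), without replicate 3. In *skpo-1* the log2FC was -0.69 (SE 0.70, adjusted p = 0.489).

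Sperm markers and *lipl-3* were both highest in replicate 3 of N2 on *E. faecalis*, and went together in some other libraries but not in all. The summed level of 6 sperm markers was 28.8, 34.8 and 76.1 CPM in replicates 1, 2 and 3 of N2 on *E. faecalis*, 10.4 to 21.5 CPM in N2 on *E. coli*, 17.9 to 48.0 CPM in *skpo-1* on *E. coli* and 15.4 to 38.9 CPM in *skpo-1* on *E. faecalis*. Of the 6, 5 were called higher in the N2 response and 0 in that of the mutant, and none was at 0 in any library. In *skpo-1*, the sperm markers and *lipl-3* were both highest in replicate 3 on *E. coli* (48.0 and 1.26 CPM). Both were lowest in replicate 3 on *E. faecalis* (15.4 and 0.25 CPM). In N2 on *E. coli* the sperm markers were highest in replicate 2 (21.5 CPM) and *lipl-3* in replicate 3 (0.93 CPM). Replicate 2 of N2 on *E. faecalis*, where *lipl-3* was at 5.24 CPM, had no more sperm markers than replicates 1, 2 and 4 of the mutant on the same bacterium (35.4, 35.2 and 38.9 CPM), where *lipl-3* was at 0.58, 0.71 and 0.59 CPM. Markers of neurons (3 of 5) and pharynx (1 of 3) were also called higher in N2 and not in *skpo-1*. Of 5 epidermis markers, *col-19* alone was called in these responses, lower for each genotype. Its mean went from 1078 to 262 CPM for N2 and from 1027 to 258 CPM for the mutant. Mean levels of *dpy-7*, *rol-6* and *elt-3* went up instead, whichever the genotype. That of *bli-1* went up for N2 (3.61 to 5.94 CPM) and down for the mutant (17.1 to 13.8 CPM). The part of these cell types in the *lipl-3* result was not tested.

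*lipl-8* was the only member that was absent from most libraries. It had 0 counts in all 7 libraries on *E. coli*. On *E. faecalis* it had 0, 5 and 23 counts in the N2 libraries and 1, 0, 1 and 0 in the *skpo-1* libraries. As for *lipl-3*, replicate 1 of N2 on *E. faecalis* was at the level of *E. coli* and replicates 2 and 3 were above it. The 28 counts over the N2 libraries on *E. faecalis* (Poisson 95% interval 18.6 to 40.5, for counting error only) gave a level 9.60-fold above the floor of 3 counts over the N2 group on *E. coli*. At the lower limit of that interval the level was at least 6.38-fold higher than the floor, and without replicate 3, which held 23 of the 28 counts, it was 2.85-fold above it. With 5 of the 7 N2 libraries at 0, an exact two-sided permutation test over libraries cannot give a p under 0.143 for these counts, so it was no test of *lipl-8*. The 2 counts in *skpo-1* were under the floor, and no fold is given.

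*lipl-5* carried most of the family's transcripts and changed least among the genes that were called. It was at 216, 274, 318 and 186 CPM in N2 on *E. coli* and at 560, 467 and 332 CPM in N2 on *E. faecalis*. In *skpo-1* it was at 235, 232 and 182 CPM on *E. coli* and at 440, 460, 423 and 431 CPM on *E. faecalis*. Neither genotype's groups overlapped, although replicate 3 of N2 on *E. faecalis* was close to the highest *E. coli* library. The increase was 1.82-fold in N2 (log2FC 0.87, SE 0.20, adjusted p = 0.00561), which is under the fold minimum, and 2.03-fold in *skpo-1* (log2FC 1.02, SE 0.21, adjusted p = 0.00547), just over it. The call thus sits at the fold minimum. Without replicate 3 of N2 on *E. faecalis* the N2 value was 1.05 and called. The mutant's value was under the minimum at 0.90 with replicate 3 of its *E. coli* group left out, at 0.999 with replicate 2 of its *E. faecalis* group left out, and at 0.998 with replicate 2 of the N2 group on *E. coli* left out.

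The remaining members were not called in either response. *lipl-6* was at 0.41, 0.50, 0.74 and 0 CPM in N2 on *E. coli* and at 1.10, 1.22 and 0.92 CPM in N2 on *E. faecalis*, and at 0.59, 0.70 and 0.49 CPM against 2.58, 1.17, 1.07 and 1.97 CPM in *skpo-1*. The library at 0 allows a level of up to 0.184 CPM, from a floor of 3 counts in that library. Its groups did not overlap in either genotype, with log2FC of 1.31 (SE 0.56, adjusted p = 0.0780) and 1.49 (SE 0.57, adjusted p = 0.0743). Without N2 on *E. coli* replicate 4, the library at 0, the *skpo-1* value was 1.48 and called (adjusted p = 0.0218). With *lipl-1*, *lipl-2* and *lipl-5*, *lipl-6* made 4 of 7 members that were higher on *E. faecalis* with no overlap, in both genotypes, where 22.6% of all tested genes were in N2 and 25.6% in *skpo-1*.

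*lipl-4* was low everywhere. It was at 0.54, 0.60, 0.46 and 0.68 CPM in N2 on *E. coli* and at 0.62, 0.43 and 0.35 CPM in N2 on *E. faecalis*. In *skpo-1* it was at 0.25, 0.27 and 0.14 CPM on *E. coli* and at 0.67, 0.52, 0.63 and 0.24 CPM on *E. faecalis*. The lowest libraries were thus those of *skpo-1* on *E. coli* and replicate 4 of *skpo-1* on *E. faecalis*. The log2FC in response to *E. faecalis* was -0.31 (SE 0.40, adjusted p = 0.557) in N2 and 1.12 (SE 0.44, adjusted p = 0.0816) in *skpo-1*, where it was 1.34 and called (adjusted p = 0.0269) without the pair of libraries whose muscle markers stood apart. *lipl-7*, the member on chromosome IV, ran from 7.87 to 23.8 CPM with all groups overlapping between the bacteria, and its log2FC was -0.49 (SE 0.25, adjusted p = 0.135) in N2 and 0.11 (SE 0.25, adjusted p = 0.770) in *skpo-1*.

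**Figure D2:**
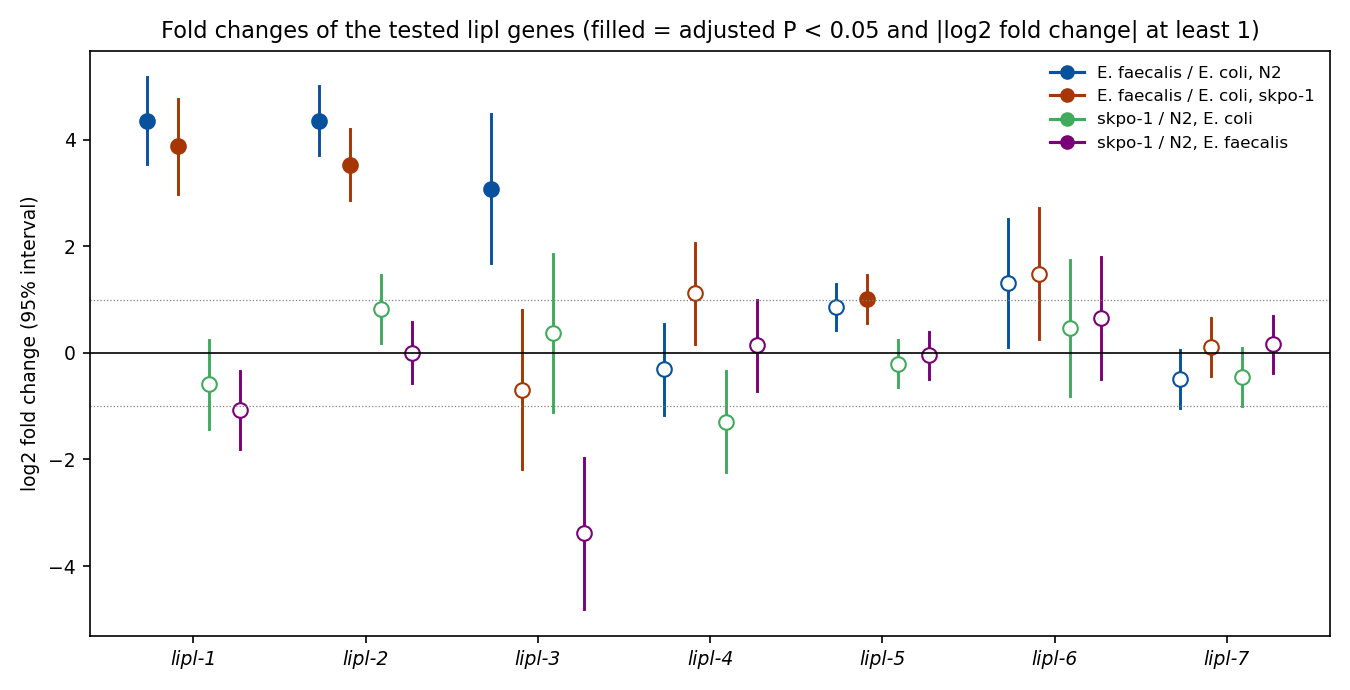
log2FC with its 95% interval for the 7 tested *lipl* genes in the 4 comparisons; filled points were called. *lipl-1* and *lipl-2* lie above 3.5 in both responses to *E. faecalis*, *lipl-3* is called in N2 alone, and no genotype comparison has a filled point.

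Between the genotypes, no *lipl* gene was called by edgeR on either bacterium. On *E. coli*, where 0.644% of all tested genes were called, 2 of 7 had an unadjusted p below 0.05, as 9.40% of tested genes did. These were *lipl-2*, higher in *skpo-1* (log2FC 0.83, SE 0.30, adjusted p = 0.351), and *lipl-4*, lower (log2FC -1.29, SE 0.44, adjusted p = 0.315). The groups of both did not overlap, which was so for 5.18% of tested genes in the higher and 3.25% in the lower direction. No other tool called a *lipl* gene there.

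On *E. faecalis*, where 0.108% of all tested genes were called, 2 of 7 had an unadjusted p below 0.05, as 7.74% of tested genes did. Both were lower in *skpo-1* with no overlap, as 3.76% of tested genes were. *lipl-3* had a log2FC of -3.39 (SE 0.66, adjusted p = 0.102) and *lipl-1* of -1.07 (SE 0.34, adjusted p = 0.471). The *lipl-3* value was called by DESeq2 (log2FC -3.40, adjusted p = 0.000224) and, in edgeR, without replicate 1 of N2 on *E. faecalis* (log2FC -3.89, adjusted p = 0.00397). In 19 of 21 alternative runs it was not called. With 1 library left out, its log2FC ran from -3.89 to -2.48. For *lipl-2* the log2FC was 0.00 with a 95% interval of -0.57 to 0.57, and for *lipl-5* it was -0.05 with an interval of -0.48 to 0.39.

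The difference between the responses was then tested itself, because a call in 1 genotype alone does not show one. By edgeR 0 of 7 *lipl* genes were called, as were 0 of all 15685 genes, with 2 of 7 at an unadjusted p below 0.05, as 7.75% of tested genes were. For *lipl-3* the response of *skpo-1* was lower by a log2 difference of -3.77 (SE 0.95, 95% interval -5.80 to -1.73, adjusted p = 0.440). DESeq2 called this difference (-3.86, adjusted p = 0.0250), and edgeR called it without replicate 1 of N2 on *E. faecalis* (-4.25, adjusted p = 0.0334). In 18 of 20 alternative runs it was not called. With 1 library left out, the difference ran from -4.25 to -2.86. For *lipl-4* the difference was 1.43 (SE 0.60, adjusted p = 0.580). For *lipl-1* the interval was -1.59 to 0.63 and for *lipl-2* it was -1.68 to 0.03. The comparisons share their groups, so they are not independent of each other.

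To compare levels between genes, CPM were divided by the length of the longest transcript in kb. On this scale *lipl-5* was first in all groups, at 197 ± 46.5 (n = 4) in N2 on *E. coli* and 359 ± 90.7 (n = 3) in N2 on *E. faecalis*. On *E. coli* *lipl-7* was second in both genotypes, at 12.6 ± 4.02 for N2 (n = 4) and 9.24 ± 0.412 for the mutant (n = 3). On *E. faecalis* *lipl-1* and *lipl-2* both passed it, and their libraries overlapped with each other in N2 but not in *skpo-1*. In N2 *lipl-1* was at 33.1 ± 10.6, *lipl-2* at 24.0 ± 4.36 and *lipl-7* at 8.96 ± 2.88 (n = 3 each). In *skpo-1* *lipl-2* was at 24.0 ± 1.82, *lipl-1* at 15.8 ± 2.14 and *lipl-7* at 9.99 ± 1.19 (n = 4 each). The libraries of *lipl-5* never overlapped with those of the gene after it. Among *lipl-3*, *lipl-4* and *lipl-6*, neighbours in the order overlapped in N2 on *E. coli*. By its mean, *lipl-8* was last in all groups, but in N2 on *E. faecalis* its libraries overlapped with those of *lipl-4*, and in N2 on *E. coli* it overlapped with *lipl-6* through the library where both were at 0.

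The summed level of the 8 genes was 213 ± 50.2 CPM per kb (n = 4) in N2 on *E. coli* and 430 ± 96.4 (n = 3) in N2 on *E. faecalis*. In *skpo-1* it was 185 ± 24.1 (n = 3) and 399 ± 13.3 (n = 4). The share of *lipl-5* in this sum was 92.4 ± 1.61% on *E. coli* and 83.1 ± 3.18% on *E. faecalis* in N2, and 92.7 ± 0.831% and 87.1 ± 0.879% in *skpo-1*. *lipl-1* and *lipl-2* together went from 1.21 ± 0.400% to 13.4 ± 2.65% in N2 and from 1.70 ± 0.163% to 9.98 ± 0.810% in *skpo-1*. Most of the added level was therefore that of *lipl-5*, although its fold change was under those of *lipl-1* and *lipl-2*.

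**Figure D3:**
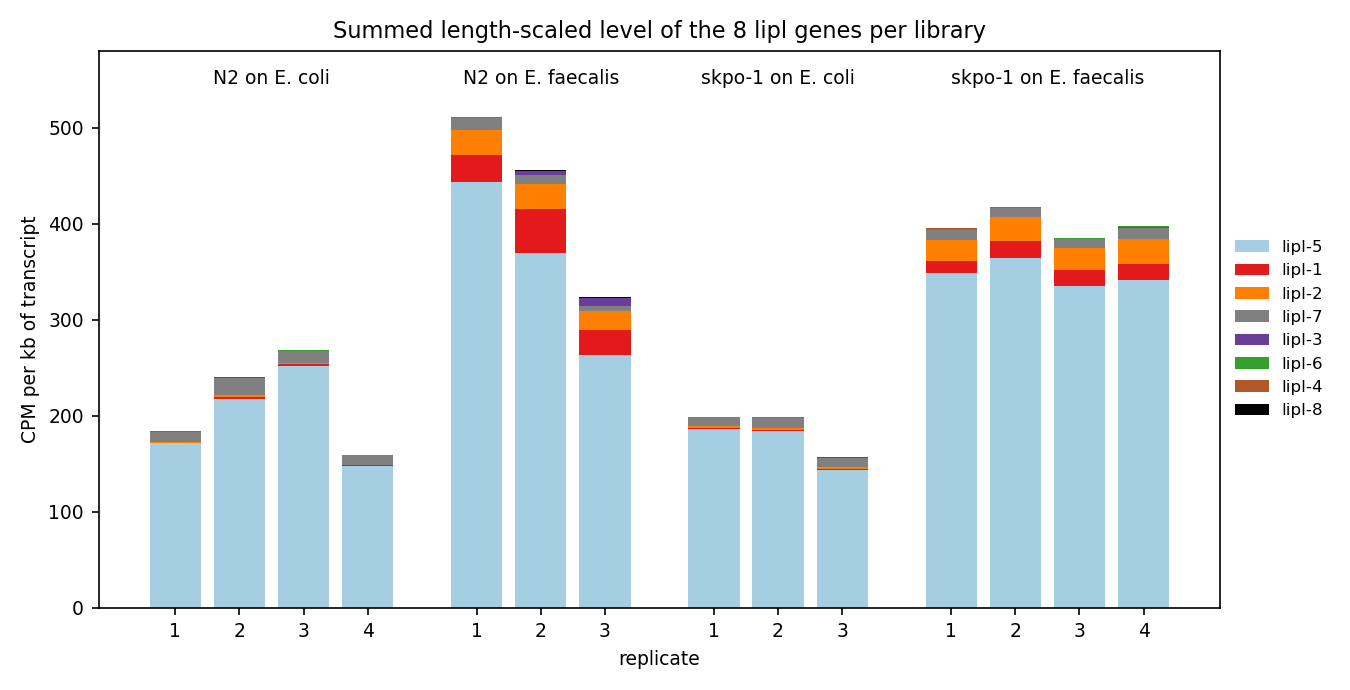
Summed CPM per kb of transcript of the 8 *lipl* genes in each library, with 1 bar per library that starts at 0 and is stacked by gene. All 7 bars on *E. faecalis* are taller than all 7 on *E. coli*, *lipl-5* fills most of each bar, and the *lipl-1* and *lipl-2* segments are visible mainly on *E. faecalis*.

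Genes with the most similar pattern were found by the root mean square (RMS) difference of log2 CPM over the 14 libraries, each gene centred on its own mean, and are given as a description. The profiles share the same libraries and their groups, so a gene with a response of similar size lies near. *F11C7.6* was nearest to *lipl-1* (RMS 0.352, against a median of 2.12 over all genes), followed by *Y87G2A.16* and *T07G12.5* (0.567 and 0.571). *lipl-2* itself was at position 10 from *lipl-1* (RMS 0.746). *F53A9.8*, *Y41D4B.17* and *C18D11.6* were nearest to *lipl-2* (0.544, 0.594 and 0.599, median 2.08), and *lipl-1* was at position 29. Nearest to *lipl-3* were *Y67D8B.5*, *msp-65*, a gene of the major sperm protein family, and *F08H9.2* (0.708, 0.712 and 0.722, median 1.44). For *lipl-5* they were *ncam-1*, *F35C8.5* and *vab-2*, which encodes an ephrin (0.177, 0.186 and 0.190, median 0.693). Some of these genes were near the floor of 3 counts in a library on *E. coli* (0.0785 to 0.210 CPM). Means there were 0.161 CPM for *F11C7.6* in *skpo-1*, 0.162 and 0.202 CPM for *C18D11.6* in N2 and *skpo-1*, and 0.164 CPM for *Y67D8B.5* in N2. The prior count of 2 in log2 CPM partly sets their profiles there.

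**Figure D4:**
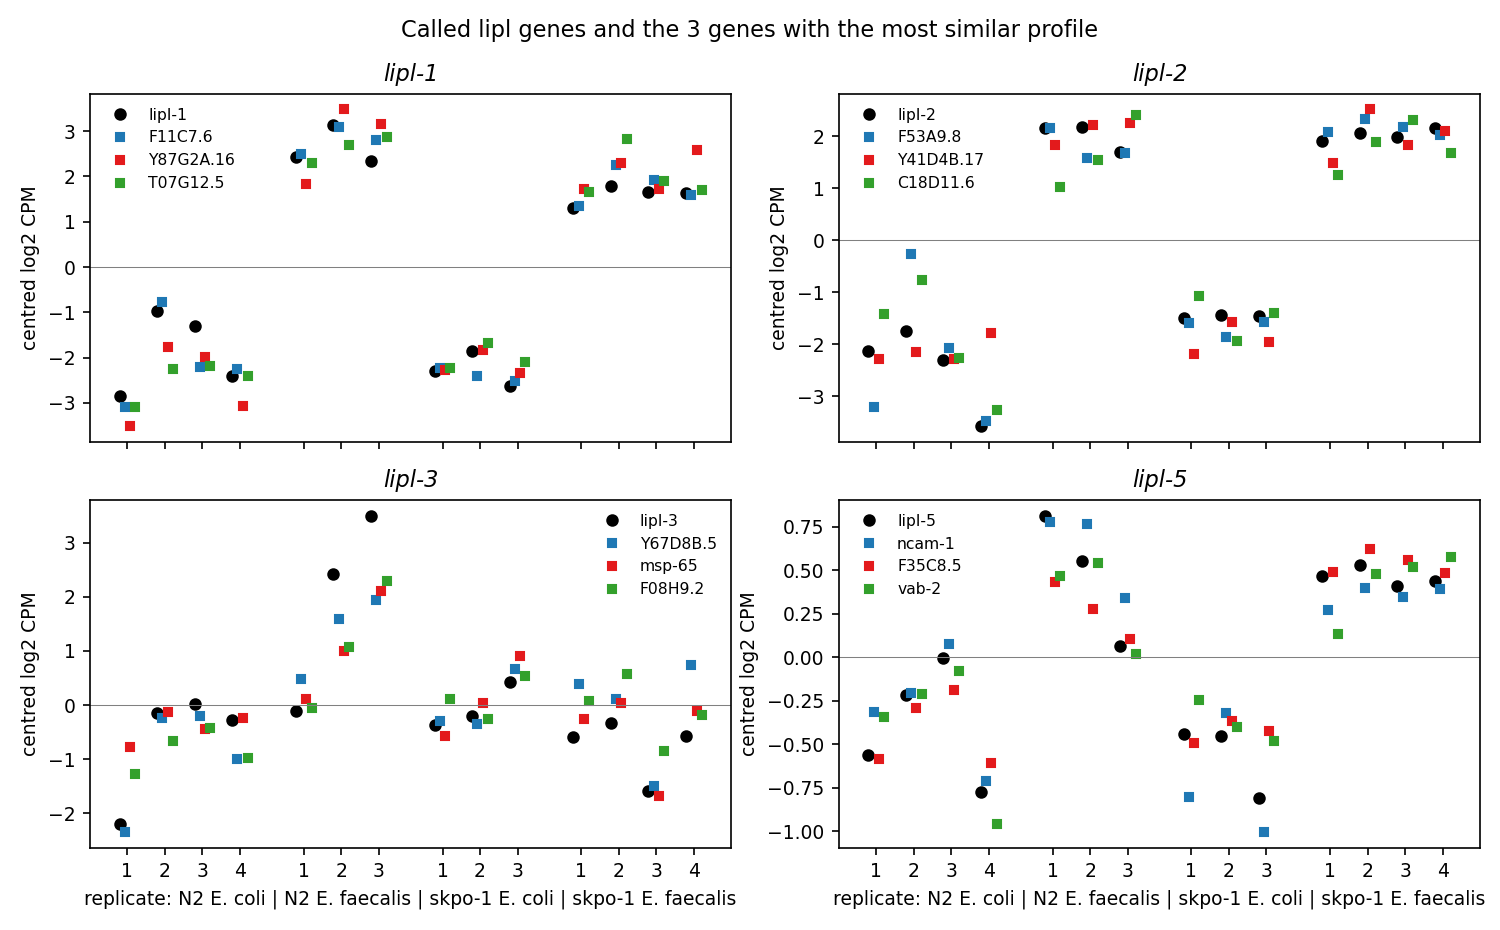
log2 CPM centred on each gene's mean, by library, for the 4 *lipl* genes called in at least 1 comparison (black circles) and the 3 genes nearest to each (coloured squares). The *lipl-1* and *lipl-2* panels split by bacterium, and in the *lipl-3* panel all 4 genes are highest in replicate 3 of N2 on *E. faecalis*.

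The pathway around the *lipl* genes was described by lists. Their counts are to be read against all 15685 tested genes, of which 19.2% were called higher and 4.10% lower in N2, while 1573 genes were called higher and 276 genes (1.76%) lower in *skpo-1*. Of 10 transcription factors linked to *lipl* genes or to fasting, 3 were called higher in the N2 response to *E. faecalis* and 0 in that of *skpo-1*, beside 19.2% of all genes in N2 and 1573 of 15685 in *skpo-1*. The difference between the responses was called for none of them, as for 0 of all 15685 genes. The 3 were *hlh-30* (log2FC 1.24, SE 0.40, adjusted p = 0.0265), *mdl-1*, of the Mad family (1.21, SE 0.24, adjusted p = 0.00248), and *pha-4*, the FOXA factor (1.13, SE 0.31, adjusted p = 0.0112). *mxl-3*, named for its known role as repressor, was at 41.3 ± 8.93 CPM (n = 4) in N2 on *E. coli* and 40.9 ± 4.93 CPM (n = 3) on *E. faecalis*, with a log2FC of -0.02 and a 95% interval of -0.43 to 0.40.

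Of 9 tested genes known to respond to fasting, 4 were called higher and 1 lower in N2, and 2 higher and 1 lower in *skpo-1*. That is 44.4% higher beside 19.2% of all genes in N2, and in *skpo-1* 22.2% higher beside 1573 of 15685 genes, over few genes in each case. *fmo-2*, a flavin-containing monooxygenase, rose most (log2FC 8.77 in N2, adjusted p = 1.49e-10, and 6.64 in *skpo-1*, adjusted p = 3.54e-09). It was also higher in *skpo-1* than in N2 on *E. coli* (1.99, adjusted p = 0.00104). *acs-2*, an acyl-CoA synthetase of mitochondrial fat oxidation, rose in both (3.42 and 1.86), *icl-1*, of the glyoxylate cycle, rose in N2 (1.55, adjusted p = 0.00673), and *fat-7*, a stearoyl-CoA desaturase, fell in both (log2FC -5.23 and -5.46).

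Of 7 genes of cytosolic lipolysis and lipid transport, 0 were called higher and 1 lower in each genotype. The 1 was *lbp-8*, the carrier in the LIPL-4 pathway. Its group mean went from 2.51 to 0.283 CPM in N2 (log2FC -3.17, adjusted p = 0.00110) and from 9.57 to 0.976 CPM in *skpo-1* (adjusted p = 0.000445). The N2 libraries on *E. coli* ran from 0.953 to 5.73 CPM. *lbp-8* was also higher in *skpo-1* than in N2 with no overlap on *E. coli* (log2FC 1.89, adjusted p = 0.0697) and on *E. faecalis* (1.76, adjusted p = 0.454). That was so for 5.18% and 5.21% of tested genes, and neither was called. Of 26 other lysosomal genes, 7 were called higher and 1 lower in each genotype, so 26.9% were higher, beside 19.2% of all genes in N2 and 1573 of 15685 in *skpo-1*. Those with the smallest adjusted p were the acid ceramidases *asah-1* (log2FC 2.21 in N2 and 2.27 in *skpo-1*) and *asah-2* (1.05 in N2), the DNase *nuc-1* (1.49 and 1.54) and the glucocerebrosidase *gba-1* (1.33 and 1.54). The median log2FC of the 26 was -0.02 in N2 and 0.26 in *skpo-1*. Of 10 tested genes of the *lips* family, which are also lipase-related, 4 were called higher in N2, namely *lips-5*, *lips-3*, *lips-7* and *lips-9* (log2FC 1.68, 1.82, 2.77 and 2.38), and 1 in *skpo-1*, *lips-5* (1.44). The 1 of 10 is close to the share of all genes called higher in *skpo-1* (1573 of 15685), and the 4 of 10 stand beside 19.2% in N2. On *E. coli* the *skpo-1* libraries of *lips-3*, *lips-7* and *lips-9* lay above those of N2, as 5.18% of tested genes did. The means were 2.58, 0.92 and 1.39 CPM in *skpo-1* and 0.73, 0.14 and 0.25 CPM in N2. On *E. faecalis* their means were also higher in *skpo-1* (5.19, 2.35 and 2.56 CPM) than in N2 (2.60, 1.05 and 1.30 CPM). *lips-5* overlapped between the genotypes on both bacteria, and none of the 4 was called between genotypes. No gene of these lists was called for the difference between the responses, as 0 of all 15685 genes were. The edgeR adjusted p of *fmo-2* was as small as that of any gene (log2 difference -2.13, adjusted p = 0.0968).

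The genes next to *lipl-1* and *lipl-2* were not called in N2. In *skpo-1*, *dhrs-4*, which lies 915 bp from *lipl-1*, had a log2FC of 1.44 (adjusted p = 0.00564), and *F46B6.9*, 3620 bp from *lipl-2*, had one of 1.30 (adjusted p = 0.0349). *nhr-210*, 2049 bp from *lipl-3*, was called there too (1.16, adjusted p = 0.0253), where *lipl-3* was not. Next to *lipl-5*, *ZK6.8* at 1057 bp was called in N2 (1.52, adjusted p = 0.0244). *ech-8*, 101 bp from *lipl-7*, was called in neither, as *lipl-7* was not.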

How the data were processed

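Paired-end reads were trimmed by the authors (Trimmomatic 0.36) and quantified with salmon 1.2.1 on the WBcel235 transcriptome, and tximport summed transcripts to genes. The resulting expected counts were deposited as whole numbers. A second deposited table, a signal, holds counts that the authors normalized with DESeq2. Salmon shares out reads that fit several paralogs, and sequences of the family were not compared here. The *lipl* genes and all lists were chosen with earlier results of these data known.

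Genes were kept by filterByExpr (minimum count 10, minimum total 15). TMM scaling and edgeR 4.0.16 (quasi-likelihood, 1 coefficient per group, all 14 libraries; R 4.3.3) gave the fold changes, and p-values were adjusted over all tested genes. The common biological coefficient of variation was 0.293. The spread between replicates limited precision for *lipl-1*, *lipl-2*, *lipl-5* and *lipl-7* on *E. faecalis*, and low counts did for *lipl-4*, *lipl-6* and *lipl-8*. For *lipl-3* the spread did in N2 on *E. faecalis* (SD 90.1% of the mean). Its counts were low in N2 on *E. coli* (69 in all) and in *skpo-1* on *E. coli* (60) and on *E. faecalis* (54). Log2 CPM had a prior count of 2. Named were all members, up to 4 genes per list with the smallest adjusted p among those called, and the 3 nearest genes of each called member. Alternatives were DESeq2 1.42.0, median-of-ratios scaling, no filter, the compared groups alone, a replicate block, limma 3.58.1 on log2(signal + 1), coding length, each library left out, and, chosen after seeing the data, both libraries with low muscle markers left out. The edgeR p-values set each difference between groups against the spread between biological replicates. That spread was estimated over all groups together and drawn towards that of other genes. The model was also run on counts simulated with its own fitted spread. That run cannot show whether the model suits uneven replicates such as those of *lipl-3*.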

Additional observations from a re-analysis of the deposited data

How the results depend on the processing

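The upregulation of *lipl-1*, *lipl-2* and *lipl-3* in N2 and of *lipl-1* and *lipl-2* in *skpo-1* was called under every alternative run. With DESeq2, the number of *lipl* genes called was 1 in the genotype comparison on *E. faecalis* and 1 in the test of differing responses, *lipl-3* in both, and leaving out 1 library gave 0 to 1 for each, with 1 only without N2 on *E. faecalis* replicate 1. The shares of all genes given above are those of edgeR with all 14 libraries, so these counts have no share to be read against. The call of *lipl-5* in *skpo-1* was lost with median-of-ratios scaling (log2FC 0.96), DESeq2 (0.96) and limma (0.97), all with an adjusted p below 0.05. DESeq2 called *lipl-6* in N2 (1.28, adjusted p = 0.0333) and *skpo-1* (1.44, adjusted p = 0.0223), and a fit of the compared groups alone called it in *skpo-1* (1.49, adjusted p = 0.0182). With no filter, *lipl-8* was called in N2, where the fitted fold depends on the prior count. The cause of these shifts was not tested.

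Signs turned only for reported values of at most 0.18 in size. For *skpo-1* against N2 on *E. faecalis*, *lipl-5* was 0.037 with the replicate block, and *lipl-2* was -0.05 without the pair of libraries with low muscle markers. For the difference between responses, *lipl-6* was -0.55 with limma and -0.0019 without that pair. With 1 library left out, the ranges on *E. faecalis* were -0.14 to 0.088 for *lipl-2*, -0.032 to 0.38 for *lipl-4*, -0.23 to 0.14 for *lipl-5* and -0.058 to 0.41 for *lipl-7*, and those of the difference were -0.027 to 0.34 for *lipl-5* and -0.21 to 0.54 for *lipl-6*. Same-numbered libraries deviated together in some groups and not in others (r above 0.1 in 9 of 19 pairs, range -0.527 to 0.245). In N2 on *E. faecalis* paired with the mutant on *E. coli*, groups that no comparison sets against each other, all 3 pairs were above 0.1 (0.176 to 0.245). No compared groups met this in every pair, so the libraries were not treated as paired, and the replicate block changed no call of a *lipl* gene. Coding length in place of transcript length changed no position in the order of levels. Low counts limit *lipl-4*, *lipl-6* and *lipl-8*, and *lipl-3* in all groups but N2 on *E. faecalis*.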
